A study of Mus musculus with 2 samples.

Results

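The chemokine family was examined in hippocampal tissue of female 5xFAD/CAST mice aged 8 to 10 months. Members were chosen by gene symbol: Ccl, Cxcl and Cx3cl ligands, Ccr, Cxcr and Cx3cr receptors and Ackr atypical receptors, each symbol followed by a digit and each gene having at least 1 protein-coding transcript. This rule gave 59 of the 55536 mouse genes in the deposited gene tables, namely 37 ligands, 18 receptors and 4 atypical receptors. Total RNA was sequenced from 2 libraries that form 1 group. The labels number them as biological replicates 1 and 2, with a biosample record each but the same donor record. The text therefore gives the spread between these 2 samples, which may be technical, and no p-value. The 5xFAD part of the genotype carries human transgenes with familial Alzheimer mutations under the neuronal Thy1 promoter. CAST is a wild-derived inbred strain whose own genome sequence was not used here. No mice without the transgenes were analysed here, so no level below is compared with a healthy hippocampus.

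Chemokines are small secreted or membrane-tethered proteins that guide cell movement. They bind receptors of the G protein-coupled class that signal through inhibitory G proteins, and atypical receptors that take the ligand up without signalling in this way. In the brain the best known axis joins neurons, which display Cx3cl1 (fractalkine), to microglia, which carry Cx3cr1. The axis of Cxcl12, Cxcr4 and the scavenger Ackr3 guides migrating neurons, while inflammatory CC ligands such as Ccl3 and Ccl4 are made by activated microglia and recruit other cells.

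The families are named for the first cysteines of the mature protein, and the coding stretches of detected ligands from each family show that spacing. Cysteine codons are in capitals, with 15 bases on each side, read 5′ to 3′ from GENCODE M21 transcripts on mm10. In Cx3cl1 (chr8:94778036-94778080, plus strand) 3 codons separate the pair, in the CXC ligands Cxcl14 (chr13:56295900-56296116, minus strand, across an exon junction) and Cxcl12 (chr6:117171493-117171531, plus strand) 1 codon does, and in the CC ligand Ccl4 (chr11:83663467-83663502, plus strand) none does.
Cx3cl1: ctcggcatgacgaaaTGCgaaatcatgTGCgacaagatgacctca
Cxcl14: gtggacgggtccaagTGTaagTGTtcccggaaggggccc
Cxcl12: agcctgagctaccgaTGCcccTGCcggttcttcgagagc
Ccl4: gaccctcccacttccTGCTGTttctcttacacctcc
A pair with the spacing of its own family was found after codon 18 in a complete coding transcript of 37 of 37 ligands. The search did not check that this pair is the first of the mature protein.

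The expected counts over all rows of the gene tables came to 27816845 in replicate 1 and 32316737 in replicate 2, and spike-ins took 0.481% and 0.454% of them. Members took 0.0662% and 0.0664% of the counts of mouse genes. A gene with no count in a library could still stand at up to 0.108 CPM, counts scaled to the library's total, in replicate 1 and 0.0933 in replicate 2, taking a limit of 3 counts that covers counting error only. All 6 neuron markers and all 6 markers of hippocampal fields were detected. Choroid plexus markers summed to 449.9 TPM in replicate 1 and 157.2 in replicate 2 (TPM is a transcript level scaled for length and for the library's total), and all 6 were lower in replicate 2.

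Of the 59 members, 18 reached 1 TPM in replicate 1 and in replicate 2, called detected below. That is 30.5%, while 60.2% of the 22015 nuclear protein-coding genes reached the same level. Another 28 had counts but did not reach it, and 13 had no count in either library of the gene tables. Ligands made up 13 of the 18, classical receptors 3 and atypical receptors 2. The summed TPM of all members was 430.4 in replicate 1 and 421.8 in replicate 2. The 4 highest members, Cx3cl1, Cxcl14, Ccl27a and Cx3cr1, held 72.7% ± 1.86 of that sum (SD, n = 2), so most of the chemokine RNA in these libraries came from few genes. Ligands together held 79.5% ± 1.07, receptors 14.2% ± 0.965 and atypical receptors 6.28% ± 0.102. In bulk tissue, fewer cells of a type and less RNA per cell cannot be told apart.

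**Figure D1:**
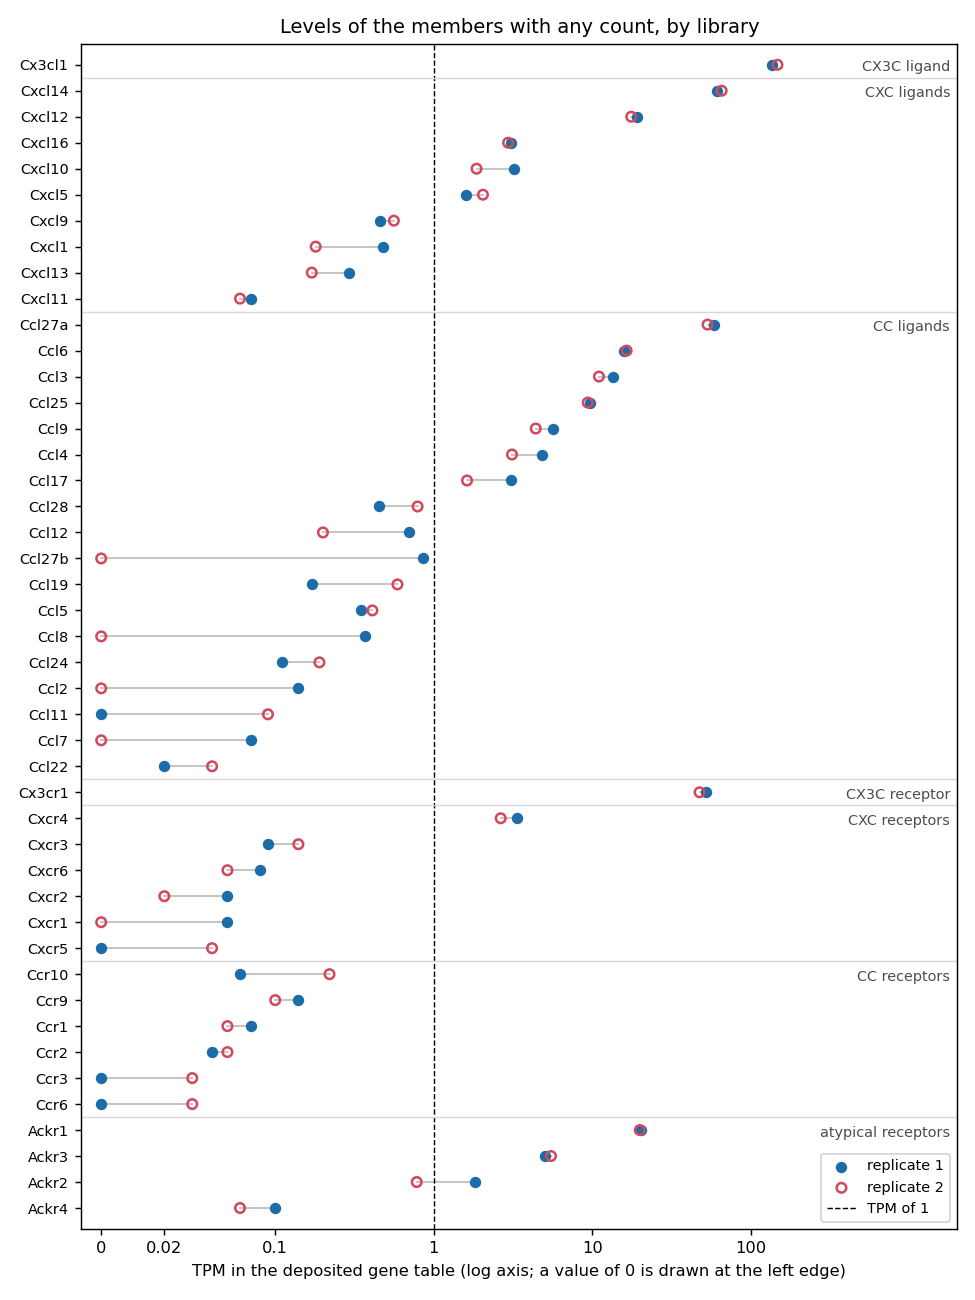
TPM of 45 of the 46 members with any count (log axis), filled points for replicate 1 and open points for replicate 2, grouped by subfamily and ordered by mean level. The dashed line marks a TPM of 1: the detected members lie to its right in both libraries, from Cx3cl1 at 135 and 147 down to Cxcl5 at 1.60 and 2.04, and Ackr2 lies on both sides of it.

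Cx3cl1, the membrane-tethered ligand that neurons display to microglia, was the highest member. It stood at 135 TPM in replicate 1 and 147 in replicate 2 (141 ± 8.12, SD, n = 2), on 8104 and 10178 expected counts. That level was above 97.7% of nuclear protein-coding genes. It alone held 33.1% ± 2.38 of the member sum. The next member, Cxcl14, lay below it by far more than the spread between the libraries.

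Among the 13 CXC ligands, 5 were detected. Cxcl14, a ligand whose signalling receptor is not settled and which some hippocampal interneurons make, stood at 61.3 and 65.2 TPM (63.3 ± 2.77, SD, n = 2). Cxcl12, the ligand of Cxcr4 that also binds Ackr3, stood at 19.2 and 17.6 TPM (18.4 ± 1.12). These 2 were the only CXC ligands above 4 TPM, and both are counted among the homeostatic chemokines. The other 3 were low. Cxcl16, a tethered ligand of Cxcr6, stood at 3.05 and 2.94 TPM. The interferon-induced Cxcl10, which draws T cells through Cxcr3, stood at 3.22 and 1.86 TPM on 58 and 33 counts. Cxcl5, a neutrophil attractant acting on Cxcr2, stood at 1.60 and 2.04 TPM. Cxcl10 was thus the highest of the 3 in replicate 1 and the lowest in replicate 2, and its place is not resolved by 2 libraries. Cxcl16 was above Cxcl5 in both.

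Among the 23 CC ligands, 7 were detected. Ccl27a, known from skin as the ligand of Ccr10, led them at 58.7 and 53.2 TPM (55.9 ± 3.92, SD, n = 2), below Cxcl14 in both libraries. Ccl6, a rodent ligand of Ccr1 made by myeloid cells, stood at 15.7 and 16.4 TPM (16.1 ± 0.488). Ccl3, a ligand that acts on Ccr1, stood at 13.4 and 11.0 TPM (12.2 ± 1.69). The 3 thus fell in the same order in both libraries. Ccl25, known from thymus and gut as the ligand of Ccr9, stood at 9.60 and 9.34 TPM. Ccl9, another rodent ligand of Ccr1, stood at 5.62 and 4.39 TPM. Ccl4, the close relative of Ccl3, stood at 4.82 and 3.11 TPM on 53 and 39 counts. Ccl9 was above Ccl4 in both libraries, and the 2 values of either gene lay further apart than the genes did from each other in replicate 1. Ccl17, a Ccr4 ligand made by dendritic cells, was the lowest of the 7 at 3.07 and 1.62 TPM on 25 and 15 counts.

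The other 24 ligands were not detected. Of these, 15 had counts. Ccl28, the second ligand of Ccr10, came nearest at 0.45 and 0.79 TPM on 32 and 60 counts. Cxcl9, the interferon-induced partner of Cxcl10, had 10 counts in each library. Ccl2, the main attractant of monocytes, had 2 counts in replicate 1 and none in replicate 2. Ccl5, a ligand of T cells and myeloid cells, had 3 and 4 counts, and Ccl12, a rodent ligand of Ccr2, had 6 and 2. Ccl2, Ccl5 and Ccl12 were thus at or near the limit of counting. Cxcl1, a neutrophil attractant, had 8 and 4 counts and Cxcl13, the attractant of B cells, 6 and 4. Ccl24 and Ccl22 had 1 and 2 counts each, Cxcl11 had 2 in each library, Ccl11 had 0 and 2, Ccl8 had 3 and 0 and Ccl7 had 1 and 0. Ccl19 and Ccl27b are described with their copies. In the gene tables no count was assigned to Ccl1, Ccl20, Ccl21a, Ccl21b, Ccl26, Cxcl2, Cxcl3, Cxcl15 or Cxcl17. The level that 3 counts stand for depends on a gene's length, and among undetected members it was at most 0.839 TPM, the limit for the short Ccl26.

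Only 3 of the 18 classical receptors were detected. Cx3cr1, the receptor by which microglia read Cx3cl1, stood at 52.2 and 47.4 TPM (49.8 ± 3.44, SD, n = 2) on 3749 and 3893 counts. Cxcr4, the receptor of Cxcl12, stood at 3.33 and 2.64 TPM (2.98 ± 0.488). Cx3cr1 was far above Cxcr4 in both libraries. All 7 microglia markers were detected in these tissues too, at a summed 649.1 and 623.8 TPM.

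The other 15 classical receptors were not detected. In the gene tables the highest of their counts was 9 and the highest of their levels 0.22 TPM. Ccr9, the receptor of Ccl25, had 9 and 8 counts, and Ccr10, the receptor of Ccl27a and Ccl28, 2 and 8. Ccr1, shared by Ccl3, Ccl6 and Ccl9, had 4 and 3. Ccr2, the receptor of Ccl2 on monocytes, had 2 and 5.08 expected counts. Cxcr3, the receptor of Cxcl9 and Cxcl10 on T cells, had 3 and 5, and Cxcr6, the receptor of Cxcl16, 3 and 2. The neutrophil receptors Cxcr2 and Cxcr1 had 3 and 1 and 1 and 0. Cxcr5, which guides B cells, and Ccr3, the eosinophil receptor of Ccl11, each had 0 and 2, and Ccr6, the receptor of Ccl20, had 0 and 1. In the gene tables no count was assigned to Ccr4, Ccr7, Ccr8 or Ccr1l1. None of the 8 markers of T and NK cells and none of the 5 of B and plasma cells was detected, Nkg7, Gzma and the neutrophil markers Ly6g and Retnlg being at 0, while 1 of the 6 neutrophil markers, Csf3r, was at 18.8 ± 0.346 TPM (SD, n = 2).

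Among the 4 atypical receptors, 2 were detected. Ackr1, the Duffy antigen of venules and red cells that binds many ligands, stood at 20.4 and 19.9 TPM (20.1 ± 0.354, SD, n = 2) and came next after Cx3cr1 among all members. Each of the 5 endothelial markers was lower, from Cldn5 at 14.4 and 15.3 TPM down to Tek at 3.73 and 4.02. Ackr1 (chr1:173331886-173333750, mm10, minus strand) starts inside the last exon of the neuronal adhesion gene Cadm3 (chr1:173333258-173367695) on the same strand. Cadm3 stood at 142.5 and 158.5 TPM. In the transcript Ackr1-201, 113 bases lie inside Cadm3 and 1040 outside it, the latter beginning 328 bases past the end of Cadm3, and 13.5% of the 101-base windows of Ackr1 transcripts also occur in Cadm3 transcripts. The part of Cadm3 in the Ackr1 count was not tested. Ackr3, the scavenger of Cxcl12, stood at 5.05 and 5.48 TPM (5.26 ± 0.304). Ackr2, which clears inflammatory CC ligands, stood at 1.82 and 0.78 TPM on 49 and 48 counts, and Ackr4, which clears Ccl19, Ccl21 and Ccl25, had 3 counts in each library.

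Levels of ligands and their receptors were set side by side for 28 pairs known from textbooks. The pairs were written down after the levels had been seen, so their counts describe these libraries and support nothing further. Both partners were detected in 3 pairs, the ligand alone in 10 and neither in 15. Of the 11 detected ligands in the list, 2 had a detected receptor in it, namely Cx3cl1 and Cxcl12. The list leaves out the pairs of the receptor that is not reported here. A ligand without a detected receptor in the list may therefore have one outside it. Cx3cl1 was 2.59 and 3.10 times the level of Cx3cr1 (2.84 ± 0.36, SD, n = 2). Cxcl12 was 5.75 and 6.65 times the level of Cxcr4, and Ackr3, the scavenger in that axis, was 1.52 and 2.08 times Cxcr4. Ackr3 was thus above the signalling receptor in both libraries. Ccl27a at 55.9 TPM stood beside Ccr10 at 0.14, Ccl6 at 16.1 beside Ccr1 at 0.06 and Ccl25 at 9.47 beside Ccr9 at 0.12. Each of these 3 ligands was thus well above a receptor that was near the limit of counting in the gene tables. These are RNA levels of mixed cells and say nothing of protein.

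**Figure D2:**
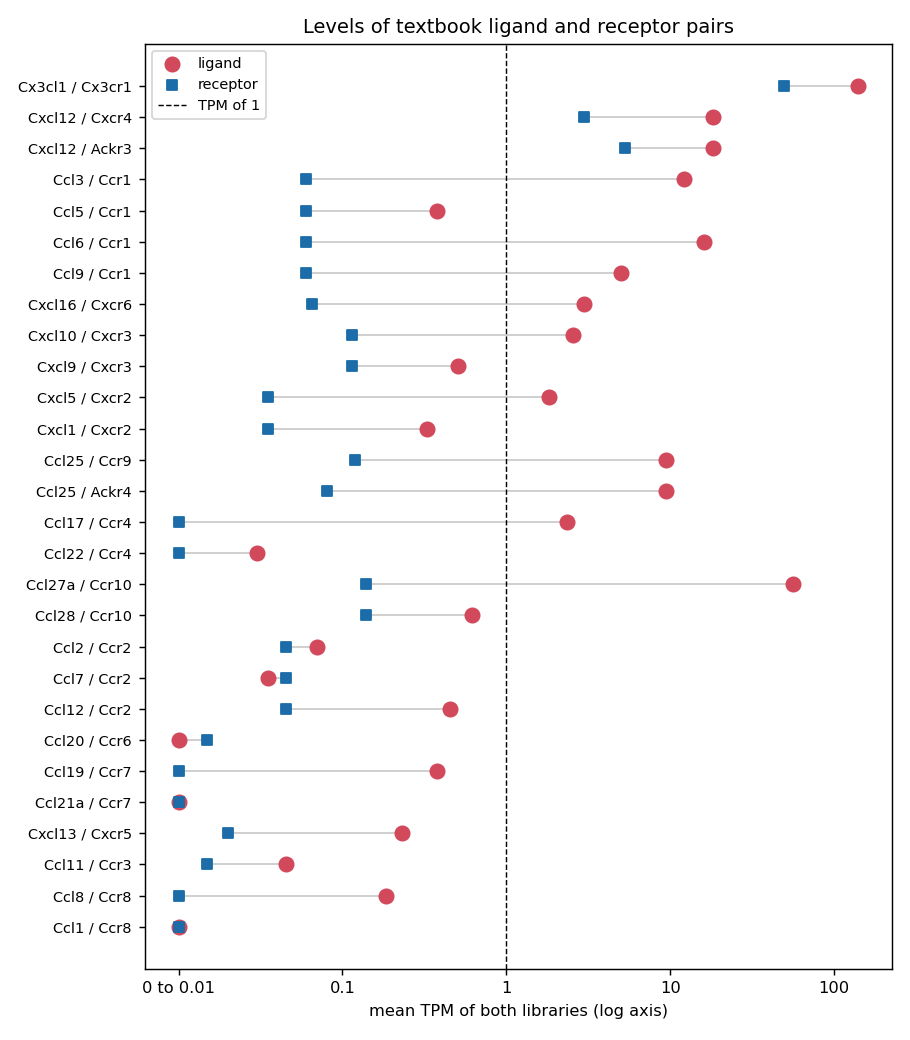
Mean TPM of ligand (circles) and receptor (squares) for 28 textbook pairs on a log axis, values of 0 to 0.01 being drawn at the left edge and the dashed line marking a TPM of 1. The 3 pairs with both points to the right of the line are the top 3, and 10 pairs have only the ligand there.

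A gene-level TPM adds up transcripts that may not encode the protein. Of the 18 detected members, 5 had all their TPM on complete protein-coding transcripts and 4 had less than 50% there, Ccl25, Ccl9 and Cxcl16 among them. All 18 still reached 1 TPM in replicates 1 and 2 when only complete coding transcripts were added. Ccl25 had 19.5% ± 0.495 of its TPM (SD, n = 2) on them, and its retained-intron transcripts Ccl25-209 and Ccl25-210 held 137 and 112, and 121 and 102.2 counts. In Ccl9 most reads fell on the coding transcript and most of the TPM of replicate 1 on a short one, TPM being a level per length. Ccl9-201, of 3006 bases, stood at 2.32 TPM in both libraries on 132.7 and 151.2 counts, and the non-coding 398-base Ccl9-202 at 3.30 and 2.07 TPM on 19.3 and 13.8 counts. Cxcl16 was divided between the coding Cxcl16-201 at 1.37 and 1.43 TPM and Cxcl16-202, annotated to be removed by nonsense-mediated decay, at 1.49 and 1.48. Ccl6 was divided between the coding Ccl6-201 at 8.66 and 7.79 TPM and the retained-intron Ccl6-202 at 7.07 and 8.64. These shares depend on the quantification: in the authors' deposited table in the kallisto layout Ccl6-201 held 35.2% ± 1.08 and Ccl6-202 64.8% ± 1.08 of the TPM of Ccl6 (SD, n = 2), against 51.2% ± 5.4 and 48.8% ± 5.4 here. Of 46 transcript shares compared, 22 were higher and 21 lower in the kallisto layout, and 17 moved by less than the spread between the libraries.

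**Figure D3:**
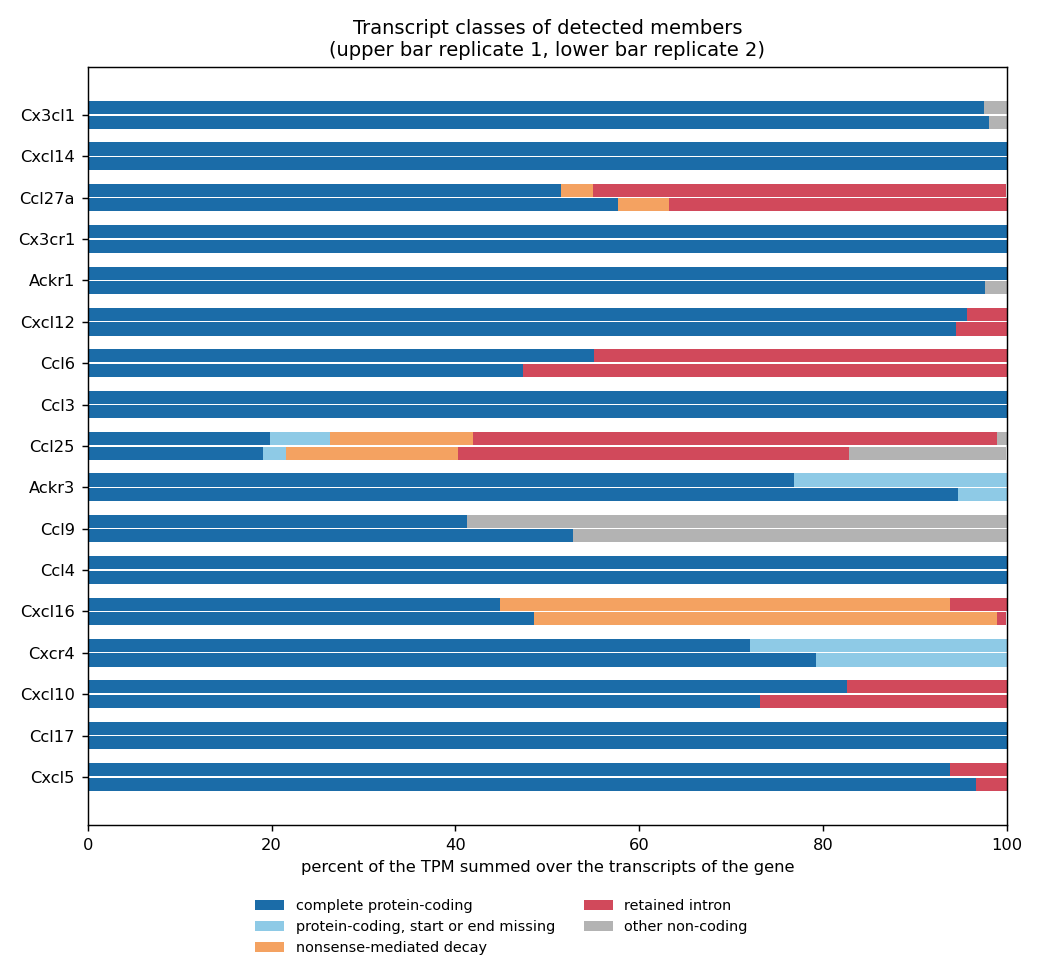
Share of the TPM of 17 detected members by annotated transcript class, in percent, with the upper bar for replicate 1 and the lower for replicate 2. Members run from the highest mean level at the top; Cxcl14, Cx3cr1, Ccl3, Ccl4 and Ccl17 are on complete coding transcripts alone, while Ccl25 has 19.5% of its TPM there.

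Cxcl12 was read from transcripts that encode proteins of different length. Their coding sequences share 267 bases and then part, and the ends are shown from 18 shared bases (lower case) to the stop codon, with the part that differs in capitals (mm10, plus strand, chr6:117173562-117176179 for Cxcl12-201, chr6:117173562-117173582 for Cxcl12-202 and chr6:117173562-117178598 for Cxcl12-203, GENCODE M21).
Cxcl12-201: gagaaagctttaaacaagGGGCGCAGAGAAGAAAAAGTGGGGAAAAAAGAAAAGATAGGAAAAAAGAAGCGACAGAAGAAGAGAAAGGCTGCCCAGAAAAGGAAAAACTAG
Cxcl12-202: gagaaagctttaaacaagTAA
Cxcl12-203: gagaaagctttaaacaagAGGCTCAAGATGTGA
Cxcl12-202 stops after 89 codons, Cxcl12-203 after 93 and Cxcl12-201, whose added end is rich in lysine and arginine codons, after 119. Cxcl12-201 stood at 8.02 and 9.46 TPM and Cxcl12-202 at 7.36 and 7.10. These 2 forms took 47.9% ± 8.48 and 39.4% ± 1.41 of the gene (SD, n = 2). Cxcl12-201 was the higher in both libraries, by about as much as the spread of its own share. In the kallisto-layout table they took 53.3% ± 1.43 and 43.1% ± 1.78, in the same order and further apart than the spread. Cxcl12-203 stood at 2.95 TPM in replicate 1 and 0.03 in replicate 2, on 175.8 and 1.89 counts, and the kallisto-layout table put it at 0 in replicate 2 and under 0.01 TPM in replicate 1. The 2 tables thus differ on whether this form was present.

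Several members have near-identical copies, and their counts are uncertain. Windows of 101 bases shared with another gene on the same strand were found in 11 of the 59 members. They made up 26.3% of the windows of Ccl27a, 97.8% of Ccl27b, 39.2% of Ccl19, 49.9% of Ccl21a and 100% of Ccl21b. Windows of Ccl27a were shared with Ccl27b and with Gm13306, Gm20878, Gm21586 and Gm21953, and the counts of these Gm genes are not given here. The motif stretch of Ccl27b (chr4:42655510-42655545, plus strand) has the same letters as that of Ccl27a (chr4:41769930-41769965, minus strand). Both are shown with the cysteine codons in capitals, and this stretch by itself does not tell the 2 copies apart.
Ccl27a: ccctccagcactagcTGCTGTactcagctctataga
Ccl27b: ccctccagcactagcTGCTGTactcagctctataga
Ccl27a had 619.6 and 639.2 expected counts with a posterior SD, the deposited error of read assignment, of 7.19 and 10.1 counts. Ccl27b had 5.48 counts in replicate 1 with a posterior SD of 2.76, and 0 in replicate 2 with one of 3.17. The difference between the 5.48 and the 0 of Ccl27b is of the order of these errors. The coding sequences of Ccl21a and Ccl21b, ligands of Ccr7, differ at 2 of 399 bases. Ccl19, the other ligand of Ccr7, had 1.80 and 7.22 counts with a posterior SD of 1.72 and 1.92. Among the 21 members that averaged 10 or more counts, none had a posterior SD above 20% of its count. Windows shared on the opposite strand were found in 7 members, such as 14.1% of those of Cxcl16 with Zmynd15 and 1.07% of those of Ccl25 with Elavl1, a gene at 31.9 and 30.5 TPM. The library kit keeps the strand per the labels, and no source used here says whether the authors counted by strand.

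The 2 libraries were compared over the 21 members that averaged 10 or more counts, as the log2 ratio of replicate 2 over replicate 1 after TMM scaling. No member passed 2-fold, and 2.64% of the 18897 mouse genes that passed the same filter did. Of the 21 members, 16 were lower in replicate 2 (76.2%), and 47.2% of all genes were; scaled to the spike-ins, 12 were lower (57.1%), and 35.7% of all genes. The members' median ratio was −0.07 and that of all genes 0.01. The median size of the ratio was 0.16 over the 21 members and 0.12 over all genes. Among the 13 members with at least 100 counts it was 0.08, and 0.09 among all 13095 such genes. At that depth the members differed between the libraries by about as much as other genes did. Of these 13 members 10 were lower in replicate 2, and 41.3% of all such genes were.

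The counting interval of the ratio (exact Clopper-Pearson, 95%, for counting error alone) lay off 0 for 7 of the 21 members, below it for 4 and above it for 3. It lay off 0 for 26.5% of all 18897 genes with at least 10 counts on average. Cxcl10 had the widest difference, with a log2 ratio of −0.96 (−1.67 to −0.36). Ccl4 followed at −0.61 (−1.27 to −0.01), Ccl25 at −0.30 (−0.53 to −0.07) and Cx3cr1 at −0.14 (−0.20 to −0.07). Above 0 lay Ccl28 at 0.68 (0.07 to 1.38), Ackr3 at 0.38 (0.14 to 0.63) and Cx3cl1 at 0.14 (0.09 to 0.18). Ackr3 was the widest among members with at least 100 counts. The ligand and the receptor of the fractalkine axis thus lay on opposite sides of 0, as did neuron markers (median log2 ratio 0.13, 0 of 6 lower) and microglia markers (median −0.11, 6 of 7 lower). Ccl17 stood at −0.84 with an interval that reached 0.05. The T and NK cell markers summed to 3.45 and 1.39 TPM, the choroid plexus markers had a median log2 ratio of −1.19 and oligodendrocyte markers one of −0.30. The part of these markers in the ratios of the members was not tested.

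**Figure D4:**
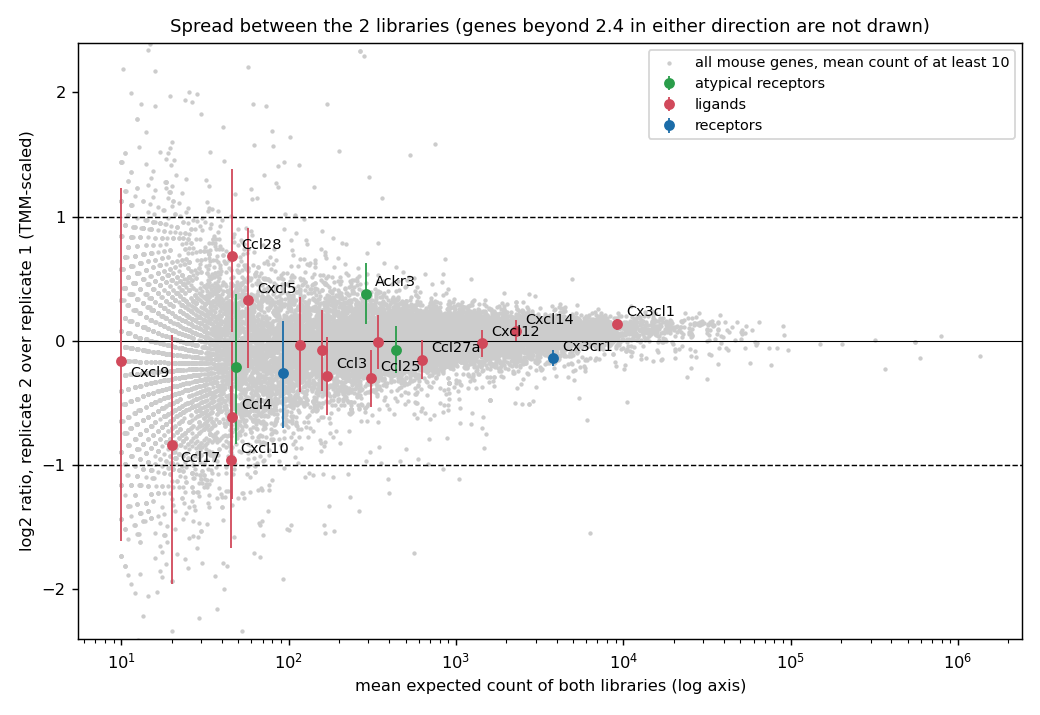
Log2 ratio of replicate 2 over replicate 1 (TMM-scaled) against the mean expected count (log axis), with 20 members in colour by role, bars for the 95% counting interval and all 18897 genes that averaged 10 or more counts in grey, of which 58 beyond 2.4 in either direction are not drawn. Dashed lines mark 2-fold; each of these members lies between them, with Cxcl10 at −0.96 nearest to the lower one.

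The authors deposited a second quantification of the same reads, in the column layout of kallisto, and the members' TPM in it was compared with the gene tables. The same 18 members were detected in both. Of 19 members averaging 1 TPM or more, 2 differed by over 1.5-fold from the median gene, while 3.59% of 13479 genes did. Ccl9 was one of them. It was at 7.82 and 6.78 TPM in that layout and 5.62 and 4.39 in the gene tables, 1.52-fold higher over both libraries. Cx3cl1 was at 153 and 160.3 TPM, of which Cx3cl1-203, a transcript annotated for decay, held 30.6 and 28.8, and 0 in the transcript table. Cxcr2, undetected in both, had 104.5 and 79.7 estimated counts in the kallisto layout and 3 and 1 in the gene tables. The Cxcr2 count therefore depends on the quantification, and 1 of the 2 values of its level passed 1 TPM in the kallisto layout (1.44 and 0.958). Ccr9, also undetected in both, had 43.12 and 40.15 estimated counts in the kallisto layout and 9 and 8 in the gene tables. Ccr10 had 2 and 8 in both quantifications. Ccr2 had 17.7 and 26.2 in the kallisto layout and 2 and 5.08 in the gene tables, while Ccl12 had 2 and 0 against 6 and 2. Of the members without a count in the gene tables, some had estimated counts in the kallisto layout. They were Cxcl3 (7.12 and 11.06), Cxcl15 (5.5 and 5.8), Ccr4 (2.34 and 5.55) and Ccl21a (2.08 and 1.90). The rest had none or almost none there.

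**Figure D5:**
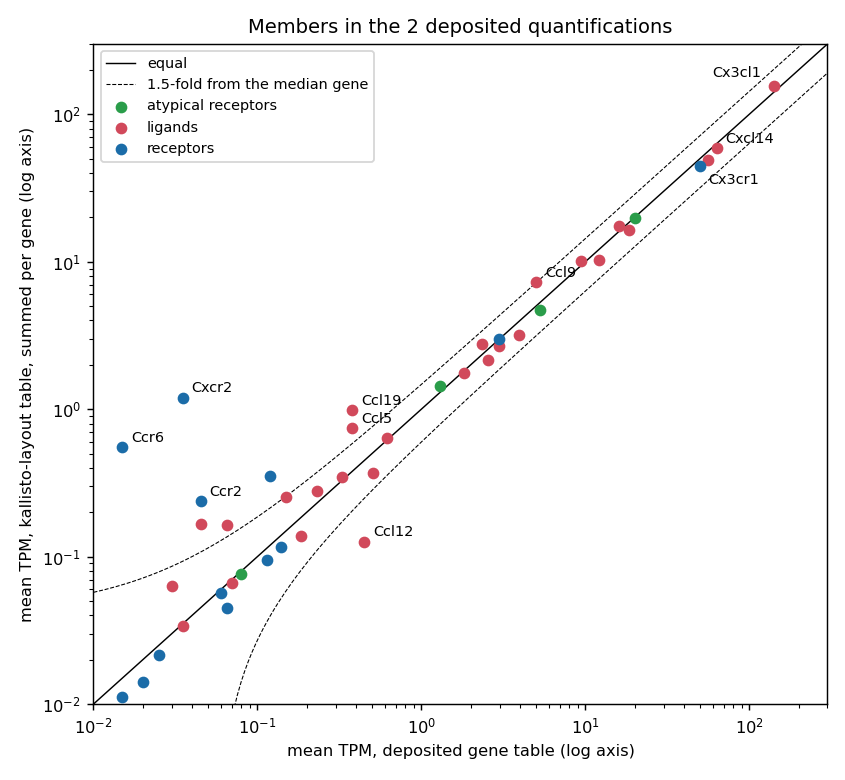
Mean TPM of members in the kallisto-layout table against the gene tables, both on log axes from 0.01, members under that in either being left out. The solid line marks equal values and the dashed lines 1.5-fold from the median gene; Ccl9 lies at the upper line among members over 1 TPM, and Cxcr2 and Ccr6 lie far above it among those under 0.1.

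Members sit in clusters on the chromosomes, and those named here are examples, not the full set. Beside their counts, 30.5% of all members and 60.2% of nuclear protein-coding genes were detected. Whether clusters differ was not tested. In the cluster Ccl5, Ccl9, Ccl6, Ccl3 and Ccl4 (chr11:83525778-83664683, mm10), 4 of 5 were detected. In the cluster Ccl2, Ccl7, Ccl11, Ccl12, Ccl8 and Ccl1 (chr11:82035571-82305690), which holds the monocyte attractants, 0 of 6 were. Of Ccl22, Cx3cl1 and Ccl17 (chr8:94745590-94812036) the latter 2 were, at 141 and 2.34 TPM.

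Other genes of the pathway were taken from lists, of which each gene's level is given in TPM. Of 24 genes of receptor signalling and trafficking, 24 were detected, with Gnb1 and Gng2, which encode G protein subunits, at 282 and 285, and 94.0 and 115 TPM, and Gnai2, the inhibitory subunit used by many chemokine receptors, at 119 and 119.8 TPM. Of 11 genes listed as proteases that cut or shed chemokines, 8 were detected. They were led by Cpe, Ctsd and Ctsb at a mean of 1250, 863 and 347 TPM. Whether Cpe acts on chemokines was not tested here. Of 20 regulators and inducers, 14 were detected, led by Stat3, Nfkbia and Irf3 at 32.3, 20.8 and 18.6 TPM, and the interferon genes Ifnb1 and Ifng had no count. Of 16 chemokine-like genes outside the symbol rule, 10 were detected, led by Mif, a cytokine that binds Cxcr4, at 192 and 210.1 TPM, Cd74 at 75.0 and 44.7, and Cmtm5 at 37.2 and 35.5. None of the 62 of these genes that averaged 10 or more counts passed 2-fold between the libraries, while 2.64% of all mouse genes with such counts did. Beside the counts of detected genes in the lists, 60.2% of nuclear protein-coding genes were detected.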

How the data were processed

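Per the labels, total RNA (300 ng with ERCC spike-ins, directional kit) was sequenced from 2 libraries. For genes and transcripts the authors deposited RSEM-layout tables of expected counts, TPM and the posterior SD of the count. For transcripts they also deposited kallisto-layout tables of estimated counts and TPM. Both used mm10 and GENCODE M21, per the file headers and labels. Programs, versions and use of strand: not given in the sources used here. Expected counts were rounded to whole numbers for ratios. 96 spike-in rows and 26248 rows with a numeric identifier and no gene name were left out of the ratios and library sizes.

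Members were linked by gene identifier. Ratios used edgeR 4.0.16 (TMM, prior count 2) in R 4.3.3, a mean count of at least 10 and a 2-fold limit. The layouts were compared as log2(TPM + 0.1), centred on the median of nuclear protein-coding genes averaging 1 TPM or more, with a limit of 1.5-fold. The ratio script was tested on simulated data. DESeq2 1.42.0 size factors, library size, spike-in scaling, other filters and pseudocounts and each library alone were tried as alternatives. Named are the detected members, the highest of each subfamily, the receptors, the members with the largest ratios or layout differences, those at 0, transcripts with at least 10% of a member, and the 3 highest genes of each list. Members and lists were chosen with earlier results of these data known. Sequences come from GENCODE M21. Values of 1 receptor and some sequences are not reported here.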

Additional observations from a re-analysis of the deposited data

Results flagged for a closer look

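Outside the member rule, 3 copies of members carried counts above the limit of 3 that a count of 0 allows. They are a pseudogene and 2 genes on scaffolds outside the chromosomes, the latter not listed in the kallisto-layout tables, and the comparisons above did not use them. Ccl21b on a scaffold had a mean of 26.3 expected counts, 29.4 in replicate 1 and 23.2 in replicate 2, with a posterior SD of 19.2 and 21.4 counts. The Ccl21a and Ccl21b genes placed on chromosome 4 had no count in the gene tables. Among genes with a Ccl21 symbol, which encode a ligand of Ccr7, the other counts there were 1.44 on a scaffold Ccl21a in replicate 2. Ccl27 on another scaffold had a mean of 19.9 counts, 9.21 and 30.5, with a posterior SD of 4.20 and 8.34. Ccl19-ps1, a pseudogene on chromosome 4, had a mean of 8.38 counts, 10.6 and 6.14, while Ccl19 itself had 1.80 and 7.22. For the scaffold Ccl21b the posterior SD was nearly as large as the count in replicate 2, and which copy the reads came from was not tested.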

How the results depend on the processing

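The number of detected members lay between 15 and 21 under all alternatives tried for it: a TPM of 0.5 or 2, at least 10 counts, the kallisto layout, rescaling over nuclear protein-coding genes, either library alone and, chosen after seeing the data, complete coding transcripts alone. The number past 2-fold was 0 except without a count filter (6: Ccl12, Ccl19, Ccl2, Ccl27b, Ccl8 and Ccr10, each under 10 counts on average) and on log2(TPM + 0.1) (1, Ackr2). Members lower in replicate 2 were 10 of 13 with at least 100 counts, and 41.3% of the 13095 genes with such counts were lower. Without a count filter 30 of 46 members were lower, and the share over all genes was not computed for that setting. Members past 1.5-fold between the layouts were 11 without a TPM filter, 1 with a pseudocount of 1, 1 without centring and 0 on counts, and 1 to 1 with either library left out (Ccl9 is past the limit without replicate 1). The ligand share was 69.4% without Cx3cl1. The direction of the ratio changed for 4 of the 21 members under scaling to the ERCC spike-ins (12 lower), for 2 on log2(TPM + 0.1) (14 lower), for 3 on the kallisto-layout counts and for 4 on complete coding transcripts, and for none of the 7 members whose counting interval lay off 0. Ratios between the libraries cannot be given with 1 left out. The cause of these changes was not tested, beyond the fewer counts that each filter lets in. Depth limits statements on the 38 members under 10 counts.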
